A study of Chlamydomonas reinhardtii with 9 samples.

Results

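The genes described here were transcripts of Chlamydomonas reinhardtii, a single-celled green alga, whose level was raised in the mutant crpaf1-1 and near wild type in the mutant crskip-1. They were chosen by the measured levels themselves. For each library the count of a gene was scaled to counts per 1e6 of the library's total (CPM). A nuclear gene was taken when its mean CPM over all 9 libraries was 2 or more, its crpaf1-1 mean was at least 1.8 times the wild-type mean, and its crskip-1 mean lay between 0.8 and 1.25 times the wild-type mean. Of 14621 genes listed, 14540 were nuclear, 12279 of these reached the mean of 2 CPM, and 145 met the whole rule, which is 1.18% of the genes at that floor. Since group means in all 3 genotypes made the choice, the levels below are a description of the chosen genes and carry no test.

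The study compared 3 groups of 3 libraries each: wild type, crpaf1-1 and crskip-1. Per the labels, all 3 groups were of strain CC5325, grew at 22 °C in liquid TAP, a medium that contains acetate, with days of 14 h light and 10 h dark, and were harvested in late G1, before DNA replication. Polyadenylated RNA was sequenced as read pairs. Each mutant was 1 named allele, and the labels give neither how it was made nor whether the 3 libraries of a group came from separate cultures, so the spread between libraries may be technical.

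PAF1 is a subunit of the Paf1 complex, which travels with RNA polymerase II along genes and is known from yeast, animals and plants for its part in transcript elongation, in the histone marks laid down over transcribed genes and in the formation of transcript ends. SKIP belongs to the splicing machinery and also acts in transcription, in Arabidopsis together with the Paf1 complex. Loss of Paf1 complex subunits in yeast and plants is known to lower some transcripts and raise others.

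Total counts ran from 14006299 to 16812251 in wild type, from 16876166 to 19725439 in crpaf1-1 and from 13907142 to 16122105 in crskip-1. Per the file headers, replicate 1 of each genotype came from lane 3 and replicates 2 and 3 from lane 2, so lane and genotype were not confounded. The deposited IDs could not be tied to gene names here, and the levels of the genes for PAF1 and SKIP themselves were not analysed here. For the same reason no function is given for any of the 145 genes: 130 matched a locus tag of assembly Chlamydomonas_reinhardtii_v5.5, and 0 of them had a symbol. In a bulk culture, a higher level in every cell and a higher level in some of the cells cannot be told apart. IDs are written without their shared ending, _4532.v6.1.

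In crpaf1-1, the 145 genes stood at a median of 2.01 times the wild-type mean CPM, with a highest ratio of 12.4. There were 77 genes at 2 times or more, 22 at 3 times or more and 5 at 5 times or more. The other 68 lay close above the bound of the rule, and the upper tail was thin. In crskip-1 their median was 1.01 times wild type, with 82 genes above wild type and 63 below. Among all 12279 genes at the floor, the medians were 1.06 in crpaf1-1 and 0.925 in crskip-1.

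**Figure D1:**
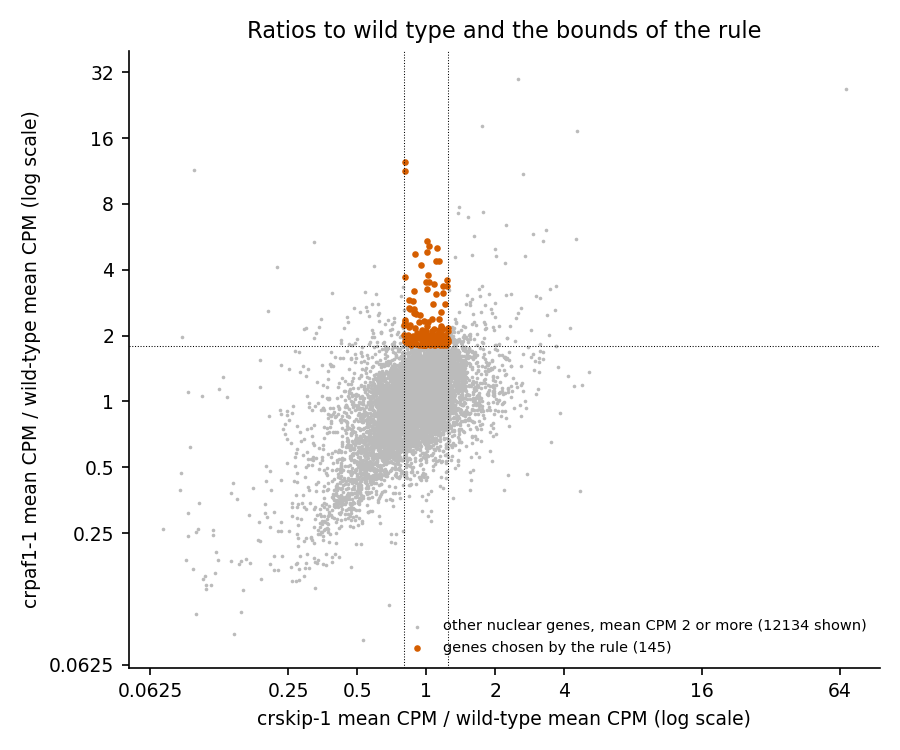
Each point is a nuclear gene with a mean of 2 CPM or more, placed by its crskip-1 mean over its wild-type mean (x axis) and its crpaf1-1 mean over its wild-type mean (y axis), both on log scales; dotted lines mark the bounds of the rule, and both axes share the 3 wild-type libraries. The 145 chosen genes (orange) fill the window above 1.8 and thin out towards the highest ratio of 12.4.

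The window is 1 of 3 ways in which genes raised in crpaf1-1 stood in the other mutant. Of 342 genes at the floor with a crpaf1-1 mean of at least 1.8 times wild type, 145 (42.4%) lay inside the crskip-1 window, 126 lay above 1.25 times wild type and 71 lay below 0.8 times. Of all genes at the floor, 64% lay inside that window. The rule turned around gave 80 genes lower in crpaf1-1 alone, and the rule with the mutants exchanged gave 70 genes higher in crskip-1 alone.

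The bounds of the rule cut through a continuous spread of values. The chosen genes nearest the crpaf1-1 bound were Cre02.g099950 at 1.802 times wild type (mean CPM 12.1 in wild type and 21.9 in crpaf1-1) and Cre12.g551950 at 1.803 (105 and 189). The genes that missed it by least were Cre03.g194517 at 1.7999 and Cre02.g114250 at 1.798, with wild-type means of 40.3 and 16.3 CPM. At the lower crskip-1 bound, Cre01.g041650 and Cre16.g688633 entered at 0.801 times wild type, while Cre06.g278099 and Cre01.g029000 missed it at 0.797. At the upper crskip-1 bound, Cre13.g580900 and Cre12.g544600 entered at 1.248 and 1.246 times wild type, while Cre05.g800578 and Cre09.g406200 missed it at 1.254 and 1.257. Close to the floor, Cre17.g735450 entered with a mean of 2.04 CPM over all libraries and Cre06.g310800 with 2.12, while Cre09.g397150 and Cre04.g223500 missed it with 1.92 each. In all, 20 of the chosen genes, Cre17.g735450 and Cre06.g310800 among them, had a wild-type mean under 2 CPM and reached the floor only with their crpaf1-1 level; they had to differ to be counted.

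The name of the set, higher only in crpaf1-1, was checked against a fit across all genes. With edgeR's quasi-likelihood test on all 9 libraries, Benjamini-Hochberg adjustment over the 13376 genes tested and a threshold of 0.05, all 145 genes were called higher in crpaf1-1 than in wild type. The same fit called 28.6% of all genes tested higher and 29.8% lower. The count of 145 follows from the rule and says nothing more. Their log2 fold changes ran from 0.76 to 3.55 with a median of 0.92, against a median of 0.01 over all genes.

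Against crskip-1 the fit went against the name for some of the genes. It called 37 of the 145 higher in crskip-1 than in wild type and 0 lower. Among all genes tested, 24.4% were called higher, a share close to that of the chosen genes, and 25.1% lower. The rule bounds the crskip-1 ratio on both sides, so neither count is read as a trait of the set. These 37 genes had crskip-1 log2 fold changes of 0.17 to 0.44, and CPM ratios of 1.034 to 1.248. In 16 of the 37 every crskip-1 library lay above every wild-type library in CPM, and in the others the libraries overlapped. At an unadjusted p under 0.05 0 genes were lower and 46 higher, and DESeq2 called 26 higher and 0 lower. Scaled by library totals alone, as the rule does, the fit called 13 higher and 7 lower. The shares among all genes at these other settings are not given here, so these counts are not read as a trait of the set either. The median crskip-1 log2 fold change of all 145 was 0.14, with a range of -0.19 to 0.44. The fit scales libraries by trimmed means (TMM), and its factors were 0.987 to 1.03 for wild type, 1.06 to 1.08 for crpaf1-1 and 0.918 to 0.934 for crskip-1. With CPM scaled by these factors, 81 of the 145 genes still met the rule; of the 64 that did not, 44 fell under 1.8 times in crpaf1-1 and 31 exceeded 1.25 times in crskip-1. The genes are therefore named below by the rule that chose them.

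Set directly against crskip-1, crpaf1-1 was called higher for 144 of the 145 genes, where 25.7% of all genes were called higher and 28.2% lower. This count too largely follows from the rule, which bounds the crpaf1-1 ratio from below and the crskip-1 ratio from above. The median log2 fold change of the 145 genes in that comparison was 0.85. The gene not called was Cre11.g467594, an ID of chromosome 11 (495750 to 497621, plus strand, 2 exon blocks). Its CPM was 1.49, 1.86 and 1.73 in wild type, 2.99, 2.69 and 3.79 in crpaf1-1 and 1.77, 2.05 and 2.30 in crskip-1. The 3 crpaf1-1 libraries lay above all others, at a log2 difference from crskip-1 of 0.43 (SE 0.20; adjusted p = 0.078 by edgeR's quasi-likelihood test with Benjamini-Hochberg adjustment).

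Library by library, the crpaf1-1 values of each of the 145 genes lay above all 3 wild-type values, and above all 3 crskip-1 values. Among all genes tested, 39.6% had every crpaf1-1 library above every wild-type library, and 50% above every crskip-1 library. The lowest crpaf1-1 library was at least 1.5 times the highest wild-type library for 127 of the chosen genes, where 4.69% of all genes tested had such a gap, and at least 2 times for 35, where 1.38% had. These counts come from the values that the rule used, and nothing is read from them. The narrowest gap, 1.23, belonged to Cre13.g567075, whose wild-type CPM of 6.54, 3.43 and 4.44 stood against 10.8, 8.59 and 8.06 in crpaf1-1. Between crskip-1 and wild type, libraries overlapped for 114 genes, stood wholly above wild type for 17 and wholly below for 14; 57.1% of all genes tested had no such overlap.

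The 145 genes together took up under 1% of the counts of each library. Their summed CPM was 3138, 3105 and 3097 in the wild-type libraries, 6567, 6437 and 6562 in crpaf1-1 and 3169, 3240 and 3338 in crskip-1. The crpaf1-1 sums stood far above the others, and the 3 crskip-1 sums lay above the 3 wild-type sums by a narrow margin. In means, this was 6522 ± 73.9 in crpaf1-1 (SD, n = 3), against 3113 ± 21.5 in wild type and 3249 ± 85.2 in crskip-1. As a share of all counts, the genes took up 0.644% to 0.657% in crpaf1-1 libraries and 0.310% to 0.314% in wild-type libraries. Of the 3409 CPM gained, the 10 genes that gained most supplied 41.7%.

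The gene with the highest ratio was Cre12.g544450, on the minus strand of chromosome 12 (9070762 to 9077311, 9 exon blocks, 4760 exonic bases). Its CPM was 14.2, 14.5 and 14.1 in wild type, 187, 186 and 157 in crpaf1-1 and 11.3, 11.9 and 11.3 in crskip-1. The 3 groups did not overlap: crpaf1-1 stood more than an order of magnitude above wild type, and crskip-1 stood a little below it, near the lower bound of the window at 0.805 times. The values rest on 203 to 239 counts per library in wild type and 2653 to 3693 in crpaf1-1, and the log2 fold change was 3.55 (SE 0.08). On the scale per exonic length (TPM), its level moved from 6.17 ± 0.044 in wild type to 74.5 ± 7.17 in crpaf1-1 (SD, n = 3 each).

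Next came Cre09.g407950, on the plus strand of chromosome 9 (5366217 to 5368948, 6 exon blocks). It was low in wild type, at 1.78, 1.64 and 1.97 CPM, and stood at 22.4, 21.5 and 17.2 in crpaf1-1 and at 1.32, 1.74 and 1.29 in crskip-1. Wild-type and crskip-1 libraries overlapped, and every crpaf1-1 library was far above both. Its log2 fold change in crpaf1-1 was 3.41 (SE 0.15), from 23 to 32 counts per wild-type library. These were the 2 genes above 10 times wild type in the set; the next in order stood at 5.42.

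Between 5 and 6 times wild type lay 3 genes of low wild-type level. Cre04.g800498 (chromosome 4, 3801099 to 3802848, plus strand) had CPM of 2.91, 1.64 and 2.84 in wild type, 14.1, 13.1 and 12.9 in crpaf1-1 and 2.02, 2.54 and 2.88 in crskip-1. Cre16.g674065 (chromosome 16, 7028713 to 7032912, plus strand) had 1.49, 1.78 and 1.67, then 8.06, 8.31 and 9.07, and 1.20, 1.92 and 1.94 in the same order. Cre01.g053150 (chromosome 1, 7570014 to 7576087, plus strand) had 2.02, 2.14 and 2.22, then 11.6, 10.2 and 10.4, and 2.02, 2.48 and 2.59. In all 3 the crpaf1-1 libraries clustered well above 6 mixed wild-type and crskip-1 libraries. Cre04.g800498 shares 104 exonic bases, and Cre01.g053150 shares 694, with a gene on the opposite strand, and no source used here says whether counting took account of strand, so both are uncertain.

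The other 5 of the 10 highest ratios lay between 4.20 and 4.81. Cre03.g169550 (chromosome 3, 3777961 to 3782234, minus strand, 12 exon blocks) was the most abundant of them, with CPM of 10.6, 7.43 and 9.44 in wild type, 48.2, 39.9 and 44.0 in crpaf1-1 and 9.20, 8.31 and 10.2 in crskip-1. The remaining 4 were all on chromosome 6. Cre06.g800714 had 2.38, 3.07 and 1.97 CPM in wild type and 10.4, 11.1 and 13.5 in crpaf1-1, and Cre06.g287050 had 2.38, 3.14 and 4.32 against 11.8, 14.5 and 17.0. Lower in level were Cre06.g268550, at 1.84, 1.43 and 1.42 against 7.10, 7.91 and 5.51, and Cre06.g255600, at 1.78, 1.29 and 1.67 against 7.10, 6.23 and 6.58. For these 5 genes crskip-1 libraries overlapped those of wild type, at 0.896 to 1.13 times its mean. The 4 genes of chromosome 6 were spread over it, with starts at 838433, 2393311, 5552704 and 6216362.

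**Figure D2:**
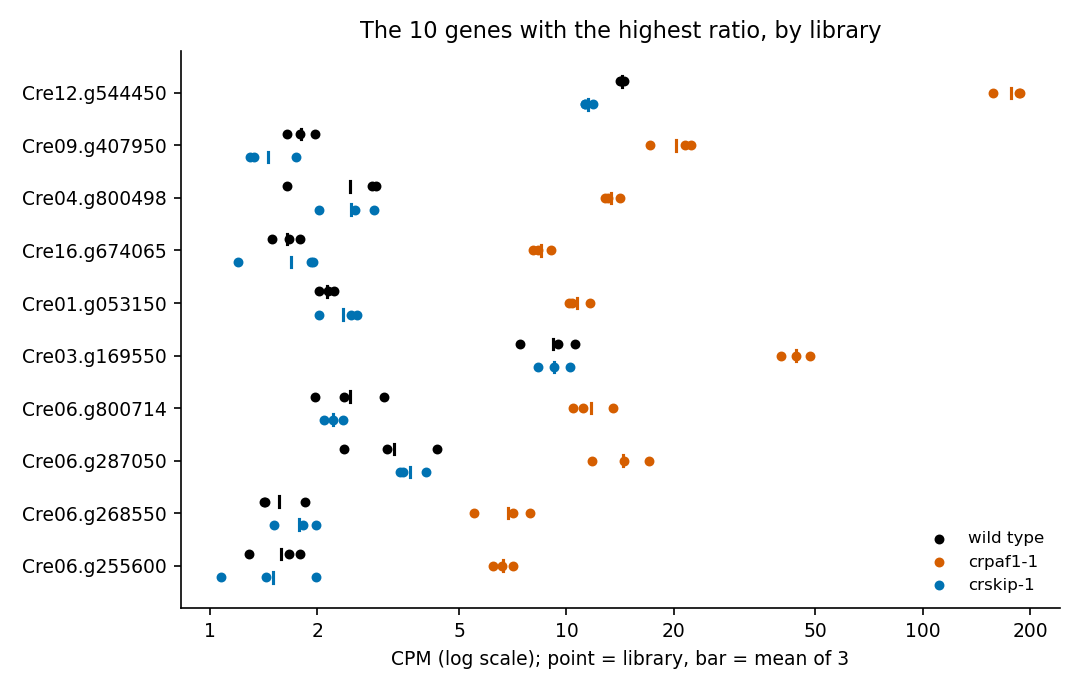
CPM on a log scale for the 10 genes with the highest ratio of crpaf1-1 to wild type; each point is a library, each vertical bar the mean of 3, and colours mark the genotype. In all 10 genes the 3 crpaf1-1 points lie to the right of every wild-type and crskip-1 point, and Cre12.g544450 is the only one of the 10 in which crskip-1 and wild type do not overlap.

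High ratios went with low wild-type levels in the set. The 68 genes from 1.8 to 2 times had a median wild-type level of 8.94 CPM, the 55 from 2 to 3 times 7.83, the 17 from 3 to 5 times 3.28 and the 5 above that 2.13. The wild-type level is the denominator of the ratio, so this order is in part built in. Median levels in crpaf1-1 differed less between these 4 ranges, at 17.6, 16.6, 13.2 and 13.4 CPM.

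The 5 most abundant of the chosen genes in crpaf1-1 had ratios between 1.806 and 2.02, and 4 of the 5 were among those called higher in crskip-1. Cre06.g308850 (chromosome 6, 8470794 to 8473862, minus strand, 4 exon blocks) had the highest CPM in crpaf1-1, with 404, 394 and 379, against 215, 214 and 209 in wild type and 213, 232 and 225 in crskip-1, where its log2 fold change was 0.20 (SE 0.05). Cre07.g325400 (chromosome 7, 1656105 to 1662368, minus strand) followed with 374, 357 and 361 in crpaf1-1, 183, 179 and 179 in wild type and 211, 205 and 211 in crskip-1. In this gene crskip-1 stood wholly above wild type, by a log2 fold change of 0.33 (SE 0.04), and 1077 of its exonic bases are shared with a gene on the opposite strand, which makes its count uncertain. Cre06.g264300 (chromosome 6, 1914482 to 1916627, minus strand) had 330, 331 and 340 in crpaf1-1, 187, 199 and 168 in wild type and 222, 227 and 227 in crskip-1. There too the crskip-1 libraries lay above all wild-type libraries, with a log2 fold change of 0.41 (SE 0.06).

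The gene of the 5 not called in crskip-1 was Cre16.g685550 (chromosome 16, 5098858 to 5103954, minus strand), with 311, 321 and 314 CPM in crpaf1-1, 174, 171 and 175 in wild type and 173, 154 and 159 in crskip-1. Cre10.g452450 (chromosome 10, 4723764 to 4737174, minus strand), with 31 exon blocks the most divided gene of the set, had 294, 299.96 and 312 in crpaf1-1, 148, 165 and 151 in wild type and 164, 165 and 191 in crskip-1. Libraries of crskip-1 and wild type overlapped in both genes, and the crskip-1 log2 fold change was 0.03 (SE 0.05) in the former and 0.29 (SE 0.07) in the latter. Per exonic length, the highest levels in crpaf1-1 were those of Cre06.g264300 at 495 ± 8.48 TPM, Cre06.g308850 at 404 ± 13.1, Cre16.g685550 at 369 ± 6.65, Cre07.g325400 at 319 ± 7.69 and Cre12.g551950 at 314 ± 6.20 (SD, n = 3 each). The last is a gene of 1 exon block (chromosome 12, 8175390 to 8176593, plus strand), with CPM of 108, 104 and 102 in wild type, 193, 187 and 186 in crpaf1-1 and 95.4, 107 and 107 in crskip-1.

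To read the crpaf1-1 level in libraries that took no part in the choice, the rule was applied to replicates 2 and 3 alone and the ratio was read in replicate 1. The rule then gave 153 genes, 117 of them among the 145. In replicate 1 their median crpaf1-1 to wild-type ratio was 1.96, with quartiles of 1.69 and 2.29, beside 2.00 in the libraries used. The level was above wild type in 152 of 153 genes, and at least 1.8 times wild type in 99 (64.7%), where 2.99% of the 12256 genes at the floor reached that ratio. The lowest ratio was 0.990. Each genotype has 1 library in this reading, so it has no replicate check.

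The opposite reading gave much the same values. Applied to replicate 1 alone, the rule gave 131 genes, 73 of them among the 145. In replicates 2 and 3 their median ratio was 1.90, 130 of 131 stood above wild type, and 86 (65.6%) reached 1.8 times, where 3.12% of 12319 genes did. How far the crskip-1 condition carried over depends on the genes set beside it. Genes chosen on replicates 2 and 3 lay inside the crskip-1 window in replicate 1 in 60.8% of cases, beside 61.1% of all genes at the floor, and genes chosen on replicate 1 lay inside it in replicates 2 and 3 in 67.9%, beside 62.9%. The raised level in crpaf1-1 was also seen in the libraries left out, which may be technical repeats of those used. The place inside the crskip-1 window was about as frequent there as among all genes. It was more frequent than among the 342 genes at 1.8 times or more in crpaf1-1, of which 42.4% lay inside. That share is over all 9 libraries and includes the 145 genes, so whether the condition carried over was not tested. Whether the libraries of a group came from separate cultures is not given, so the libraries left out are no independent check.

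**Figure D3:**
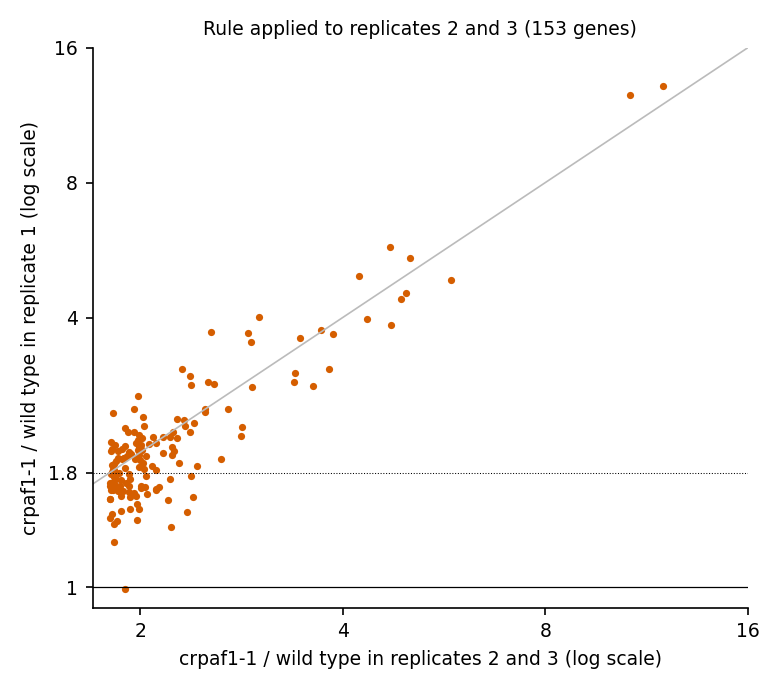
Ratio of crpaf1-1 to wild type for the 153 genes that met the rule in replicates 2 and 3, in those libraries (x axis) and in replicate 1, which took no part in the choice (y axis), both on log scales; the grey line marks equal ratios. All but 1 gene lie above 1 on the y axis, and 99 lie at 1.8 or more.

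Read within each lane, the 145 genes themselves had a median ratio of 2.04 in lane 3 (replicate 1), with 113 at 1.8 or more and a lowest ratio of 1.36. In lane 2 (replicates 2 and 3) the median was 2.03, with 136 at 1.8 or more and a lowest ratio of 1.63. Both lanes are part of the choice, so these values describe how evenly the 2 lanes carried it. Among the crpaf1-1 libraries, replicate 1 was the highest for 65 of the genes, replicate 2 for 24 and replicate 3 for 56, beside 41.8%, 25.7% and 32.5% of all genes at the floor.

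The genes varied between libraries of a group more than the genes at the floor as a whole, in part with their level. Their median coefficient of variation was 6.58% in crpaf1-1, against 9.16% in wild type and 9.96% in crskip-1, where all genes at the floor had 5.56%, 6.17% and 6.74% in that order. Many of the chosen genes are low, and low counts vary more. Among genes of 5 to 20 CPM the medians were 7.51% for the chosen genes and 8.03% for all in wild type, 6.87% and 7.50% in crpaf1-1, and 9.78% and 8.36% in crskip-1. Among genes of 20 to 100 CPM the chosen genes had the higher median in each genotype, with 5.81% beside 5.14% in wild type, 5.71% beside 4.62% in crpaf1-1 and 7.73% beside 5.42% in crskip-1. Under 5 CPM they also did so in wild type (15.4% beside 13.7%) and crskip-1 (15% beside 14.3%). In crpaf1-1 they did not (11.7% beside 12.7%). From 100 CPM upward they did so in crpaf1-1 (3.11% beside 2.82%) and crskip-1 (5.2% beside 3.8%). In wild type they did not (2.51% beside 3.46%).

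The largest spread among crpaf1-1 libraries was that of Cre09.g800986, at 23.3%, with CPM of 4.77, 5.11 and 3.20 in crpaf1-1 and 1.90, 1.499 and 1.30 in wild type. Cre12.g551552 followed at 20.6%, with 4.41, 4.27 and 2.96 against 1.96, 2.14 and 2.28, and Cre09.g801024 at 19.1%, with 19.7, 19.5 and 26.9 against 9.99, 10.4 and 10.4. In each of the 3 a single library set the spread, and the groups still did not overlap. The tightest were Cre15.g636896, at 1.02%, with 22.5, 22.1 and 22.3 in crpaf1-1 against 10.3, 13.6 and 13.0 in wild type, and Cre15.g643600, at 1.17%, with 253, 253 and 258 against 107, 109 and 116. Cre10.g436650 had 1.47%, with 18.5, 19.0 and 18.5 against 9.81, 11.4 and 9.44. Cre15.g643600, Cre10.g436650 and Cre09.g801024 share 414, 141 and 218 exonic bases with a gene on the opposite strand and are uncertain in that respect.

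Gene structure took no part in the rule, except through the level that the floor asks for. The chosen genes were expressed at a lower level in wild type than the genes at the floor as a whole, with medians of 7.60 and 21.6 CPM, or 5.56 and 14.3 TPM. They had a median of 7 exon blocks (overlapping exons of a gene merged into 1) beside 8 for all genes at the floor, 2783 exonic bases beside 2982, and a span on the chromosome of 4983 bases beside 4945. In length and span the difference was small. By length, 27.6% of the chosen genes were within the shortest 20% of genes at the floor, under 1859 exonic bases, and 15.2% within the longest 20%, over 4832. Among the 125 chosen genes with a wild-type mean of 2 CPM or more, the medians were 8 exon blocks and 2927 bases, and 20.8% lay within the shortest 20% and 16% within the longest. The higher share of short genes was therefore not seen once the genes that reached the floor through crpaf1-1 were set aside. The share with 1 exon block among the 125 was 8.8%.

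Genes without introns made up 13 of the 145 chosen genes (8.97%), beside 4.02% of the genes at the floor. Genes of 2 to 5 exon blocks made up 33.8%, beside 25.3%, and genes of over 20 blocks 3.45%, beside 7.85%. Low genes tended to have fewer exon blocks, so the shares were also read within ranges of wild-type level. Under 5 CPM the share with 1 exon block was 10.2% of the chosen genes and 7.83% of all, from 5 to 20 CPM 8% and 4.34%, and from 20 CPM upward 8.33% and 3.05%; the chosen genes with 1 block numbered 6, 4 and 3 in these ranges. Among the 126 genes raised in both mutants the share was 10.3%, close to that of the chosen genes. No test was made of these shares. Within the set the ratio to wild type had only a weak relation to structure, with Spearman's rho of -0.15 for exon blocks and -0.12 for exonic length across 145 genes, which are not independent replicates.

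The 13 genes of 1 exon block covered most of the range of levels. The highest ratio among them was that of Cre01.g800001 (chromosome 1, 271258 to 271869, plus strand), with 6.60 CPM on average in crpaf1-1, against 2.37 in wild type and 2.88 in crskip-1; it shares 60 exonic bases with a gene on the same strand. Cre06.g306350 (chromosome 6, 8217134 to 8218443, plus strand) had 66.2 CPM in crpaf1-1, against 25.2 and 22.2, or 2.63 times wild type, and shares no exonic base with another gene. The lowest ratio, 1.803, was that of Cre12.g551950, also the most abundant. At the other end were 5 genes of over 20 exon blocks, of which Cre07.g352800 (25 blocks) had 112 CPM, against 54.7 and 62.9, and Cre01.g007500 (26 blocks) 10.2, against 5.56 and 5.01.

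**Figure D4:**
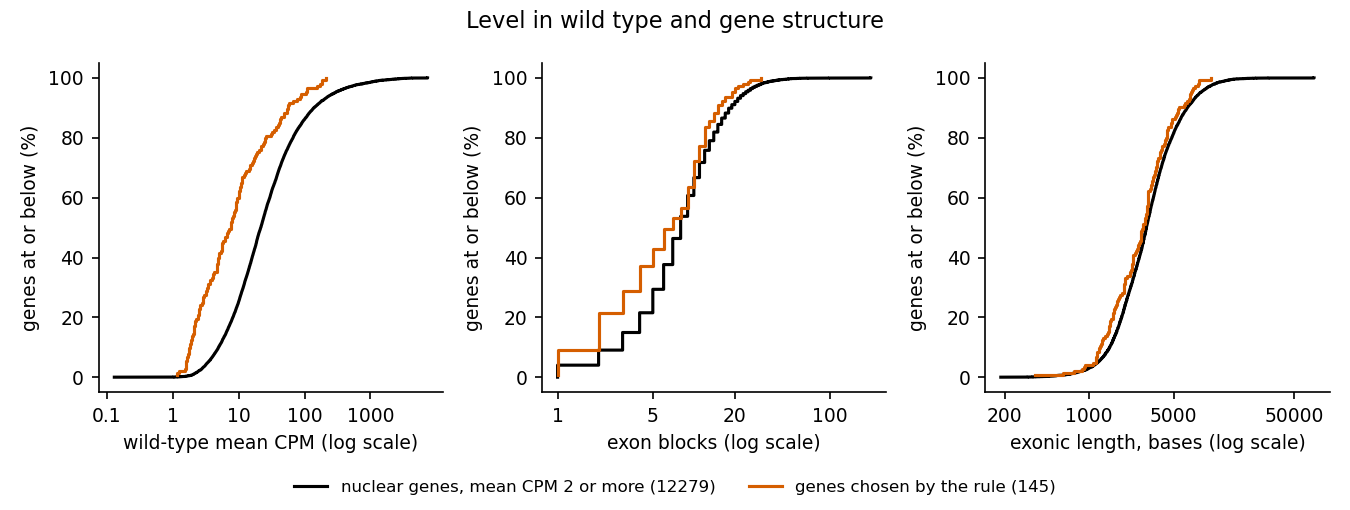
Cumulative share of genes (y axis, %) by wild-type mean CPM, number of exon blocks and exonic length (x axes, log scales) for the 145 chosen genes (orange) and the 12279 nuclear genes at the floor (black). The orange curve lies to the left in the panel of level, with medians of 7.60 and 21.6 CPM, and less so in the panels of exon blocks, with medians of 7 and 8, and of length, with 2783 and 2982 bases.

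Overlap between gene models limits what a count can tell. Of the 145, 43 (29.7%) shared exonic bases with a listed gene on the opposite strand and 17 (11.7%) with one on the same strand, beside 37.5% and 18.9%. Together 56 (38.6%) shared bases with any listed gene, beside 51.4%. The other chosen genes share no exonic base with a listed gene. The genes lay on all 17 numbered chromosomes, from 3 on chromosome 8 (0.659% of its genes at the floor) to 17 on chromosome 6 (1.53%), with the highest share on chromosome 15, where 6 genes made up 2.5%.

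Position along the chromosome also took no part in the rule. In 4 places chosen genes were direct neighbours in the order of listed genes, which involves 8 of the 145 (5.52%). Of the 125 with a wild-type mean of 2 CPM or more, 3.2% had a direct neighbour among the 145. Only in the pair on chromosome 10, described below, did both genes have a wild-type mean of 2 CPM or more. All 4 pairs were on the same strand. Among direct neighbours at the floor on the same strand, 7.14% upstream and 7.02% downstream were themselves chosen, beside 1.2% and 1.18% for the neighbours of all genes at the floor. On the opposite strand 0 direct neighbours were chosen. Both higher shares come from the same 4 pairs, counted from either end, so they are 1 observation. Outside the pair on chromosome 10, each pair held a gene that reached the floor only with its crpaf1-1 level. In all, 20 of the chosen genes had another within 5 listed genes.

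The pair with the highest ratios was Cre09.g407950, described above, and Cre09.g408000, which starts 101 bases beyond its end (5369050 to 5372784, plus strand). Cre09.g408000 was the more abundant, with CPM of 28.1, 21.4 and 26.7 in wild type, 104, 94.7 and 91.3 in crpaf1-1 and 29.6, 25.4 and 22.7 in crskip-1. Both genes stood apart from wild type in all 3 crpaf1-1 libraries, the upstream gene at 11.3 times and the downstream gene at 3.80 times. The level did not continue past them: the listed gene before them on the same strand, Cre09.g407900, stood at 1.26 times wild type and the one after, Cre09.g408051, at 1.02 times, although the latter shares 198 exonic bases with Cre09.g408000.

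In the pair on chromosome 1 the genes abut without a gap. Cre01.g022666 (3477405 to 3478526, plus strand) had CPM of 1.249, 1.14 and 1.11 in wild type, 4.61, 3.48 and 3.97 in crpaf1-1 and 0.883, 1.61 and 1.29 in crskip-1. Cre01.g022681 (3478527 to 3480591, plus strand) had 2.20, 1.64 and 1.48, then 4.26, 4.21 and 4.03, and 1.13, 1.67 and 1.51. Both were low genes with crpaf1-1 libraries above all others. The pair on chromosome 13 is 714 bases apart: Cre13.g801572 (4197832 to 4200189, plus strand) had means of 1.52, 3.88 and 1.76 CPM in wild type, crpaf1-1 and crskip-1, and Cre13.g591550 (4200904 to 4206111, plus strand) 8.95, 18.04 and 10.8.

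The pair on chromosome 10 was the most abundant. Cre10.g445000 (3532990 to 3539482, plus strand) had CPM of 54.4, 56.6 and 59.5 in wild type, 107, 114 and 108 in crpaf1-1 and 54.7, 58.7 and 66.7 in crskip-1. Cre10.g445050 (3538524 to 3546053, plus strand) had 83.9, 79.6 and 87.9, then 198, 187 and 202, and 77.3, 82.8 and 86.6. The models of the genes overlap on the same strand and share 435 exonic bases, so how reads were divided between them is uncertain. Cre12.g544450, the gene with the highest ratio, also had a chosen gene close by: Cre12.g544600 (9057340 to 9061795, minus strand), with CPM of 12.3, 13.2 and 13.0 in wild type, 25.8, 26.2 and 29.3 in crpaf1-1 and 15.9, 15.7 and 16.4 in crskip-1. Between them lies Cre12.g544550 on the opposite strand, at 1.30 times wild type in crpaf1-1.

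**Figure D5:**
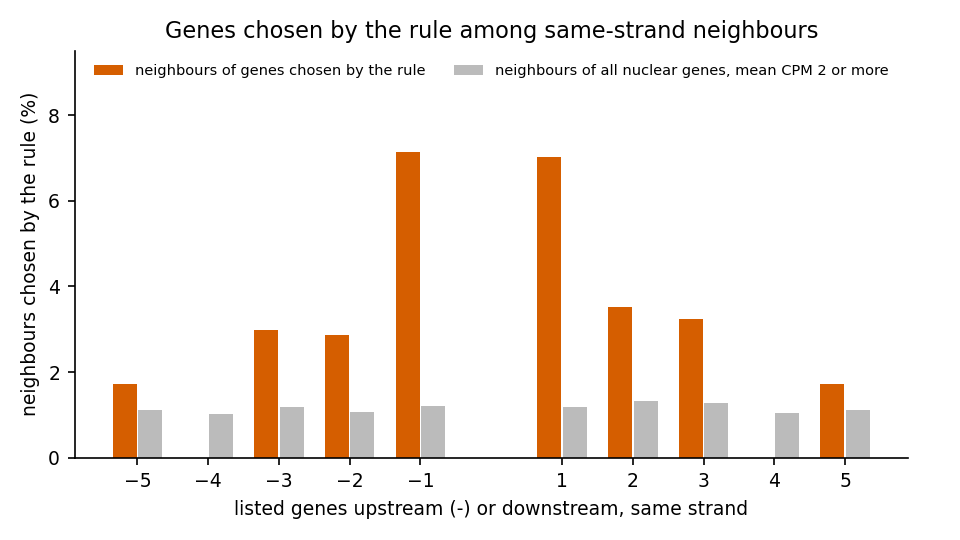
Share of same-strand neighbours at the floor that are themselves chosen genes (y axis, %), by position in the order of listed genes from 5 upstream to 5 downstream (x axis), for the chosen genes (orange) and for all nuclear genes at the floor (grey). The direct neighbours stand at 7.14% and 7.02%, from the same 4 pairs counted from either end, and grey bars near 1%.

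Apart from these pairs, the genes next to a chosen gene lay close to the other genes. The 236 nearest neighbours at the floor that were not chosen had a median log2 ratio of crpaf1-1 to wild type of 0.13, beside 0.09 for all 12134 genes at the floor that were not chosen. At least 1.5 times wild type was reached by 16 of them (6.78%), beside 7.38%, and 22 (9.32%) were lower by that factor or more, beside 10.9%. By side, the median was 0.21 for upstream neighbours, beside 0.12 for upstream neighbours of all genes, and 0.06 for downstream neighbours, beside 0.06. Split by side, 8.87% of upstream neighbours stood at least 1.5 times above wild type, beside 7.68%, and 4.39% of downstream neighbours, beside 6.95%. Of all upstream neighbours, 8.06% were lower by that factor, beside 10.3%. On the opposite strand this held for 10 of 72 upstream neighbours (13.9%), beside 9.34%. On the same strand it held for 0 of 52, beside 11.5%. Downstream the order of the strands was the other way, with 8.2% on the opposite strand, beside 10.5%, and 13.2% on the same strand, beside 12.9%. The numbers of genes are small, and no trait of either strand is read from them. No test was made of these differences.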

How the data were processed

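The authors deposited raw, non-normalized counts per gene, 1 table per library. Alignment and counting used the tools Bowtie2 and featureCounts, per the submitters' processing notes; versions and strand use: not given in the sources used here. Bowtie2 does not split reads over introns. Per the file headers, alignments were uniquely mapped with duplicates removed, which lowers counts of near-identical and of abundant genes. The labels' molecule field reads genomic DNA, while their protocol describes selection of polyadenylated RNA, which was followed. Coordinates are as deposited; the genome build is named only by the ID ending.

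CPM divides counts by the file total. TPM also divides by exonic length. The fit was edgeR 4.0.16 (quasi-likelihood, TMM, filterByExpr, R 4.3.3, Benjamini-Hochberg over all genes tested) on all 9 libraries, tested on simulated data; DESeq2 1.42.0 was an alternative. Other alternatives changed scaling, filter, block, libraries and thresholds.

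The members and lists were chosen with earlier results of these data known. Genes are named by rule: the 10 highest ratios, the 5 highest CPM and TPM in crpaf1-1, neighbouring genes, those nearest each bound, and the 3 largest and smallest spreads in crpaf1-1. A few others (Cre11.g467594, Cre13.g567075, genes of 1 or of over 20 exon blocks, and neighbours) were chosen after their values were seen. Promoters, proteins and annotated functions were not analysed here.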

Additional observations from a re-analysis of the deposited data

How the results depend on the processing

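The count of 145 genes called higher in crpaf1-1 than in wild type was 145 under every alternative run, leaving out any 1 library included (145 to 145). Called in crskip-1 against wild type were 37 genes, 26 with DESeq2, and 20 (13 higher and 7 lower) when libraries were scaled by total count alone, where the median crskip-1 log2 fold change of the genes was 0.02; leaving out 1 library gave 28 to 39. Against crskip-1, 139 to 144 were called higher when 1 library was left out. The shares called among all genes under these alternatives are not given here, so the counts only describe the chosen genes. The rule gave 92 genes with TMM-scaled CPM (81 shared), 607 with a bound of 1.5 times in crpaf1-1 and 77 with a bound of 2 times; leaving out 1 library gave 135 to 158. Medians of exon blocks, length, span and the neighbours' ratio stayed within their 95% intervals, which treat genes as independent. Among the 89 chosen genes sharing no exonic base with another listed gene, the median was 5 exon blocks, beside 7 for all 145. The share of chosen genes next to another was 3.2% among the 125 with a wild-type mean of 2 CPM or more, with neighbours counted among all 145. All 576 values of 36 named genes kept direction and call. These genes, like all 145, were chosen by the same counts. The unchanged calls in crpaf1-1 against wild type therefore largely follow from the rule and support nothing. Reading the ratio in replicates 2 and 3, and the limits to wild-type means of 2 CPM and to ranges of level, were chosen after seeing the data.

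With the replicate number as a block, 145, 40 and 144 of the chosen genes were called in the 3 comparisons, again without the share among all genes. Deviations of same-numbered libraries correlated at -0.05 to 0.26, so the numbers were not taken as pairing. Genes under 2 CPM in wild type rest on few counts.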

Other observations

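Of the 145 genes, 15 (10.3%) had no locus tag in assembly Chlamydomonas_reinhardtii_v5.5, beside 5.17% of genes at the floor. They include Cre04.g800498 and Cre06.g800714, at 5.42 and 4.72 times wild type in crpaf1-1, and 7 of the 13 genes of 1 exon block. Low genes lacked a tag more often in general: under 5 CPM in wild type the shares were 15.3% of the chosen genes and 14.5% of all. From 5 to 20 CPM they were 10% and 5.81%, and from 20 CPM upward 2.78% and 2.90%. Among the 126 genes raised in both mutants the share without a tag was 15.1%, so it was not particular to the 145.

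The 80 genes that were lower in crpaf1-1 alone, by the rule turned around, had 0 genes of 1 exon block and medians of 11 exon blocks and 3455 exonic bases. The 145 higher genes had 7 blocks and 2783 bases, and all genes at the floor 8 and 2982. The floor acted unequally: 20 of the 145 and 0 of the 80 had a wild-type mean under 2 CPM, with median wild-type levels of 7.60 and 11.9 CPM. The 125 chosen genes at 2 CPM or more in wild type had medians of 8 blocks and 2927 bases. Of the 70 genes higher in crskip-1 alone, 4.29% had 1 exon block. These groups share their wild-type libraries with the 145 genes, and the differences between them were not tested.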
